A study of Mus musculus with 20 samples.

Results

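The semaphorins, plexins and neuropilins are a family of guidance ligands and their receptors, and 31 of the 15757 genes in the expression table carry their names. Members were chosen by name alone, as genes called Sema3 to Sema7, Plxna to Plxnd, Nrp1 or Nrp2 with their usual suffixes, a rule that uses no measured value. They comprise 7 secreted class 3 semaphorins, 13 membrane-bound semaphorins of classes 4 to 7, 2 neuropilins and 9 plexins. RNA was sequenced from OG2 mouse embryonic fibroblasts (MEFs) at passage 2, which carry a green fluorescent reporter of Oct4, on the way to induced pluripotent stem cells. All 20 libraries share the retroviral factors Oct4, Sox2, Klf4 and c-Myc (OSKM) and culture in iCD1 medium. The knockdown arm also carried a short hairpin RNA (shRNA) against Ddx10, which encodes an RNA helicase, and the control arm an shRNA labelled shLuci. Each arm was sampled at days 0, 1, 3, 5 and 7 of reprogramming with 2 libraries a group, called biological replicates by the submitters. The sources do not say which Ddx10 hairpin each library carried or whether replicates were separate MEF preparations, so each p-value here is set by how far libraries of a group lie apart, which may be technical.

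Semaphorins signal to cells by binding plexins, single-pass receptors whose intracellular part switches off small GTPases of the Ras and Rap family and so loosens adhesion and the cytoskeleton. Most class 3 semaphorins do not bind plexins tightly by themselves and act through a complex of a neuropilin with a class A plexin or plexin D1, while the membrane-bound classes bind their plexins directly. Neuropilins are also co-receptors for vascular endothelial growth factors (VEGFs), and several members are known from axon guidance, vessel patterning, immune cells and the migration of mesenchymal cells.

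Values are the authors' normalized read counts, and differences are log2 fold changes of the count plus 1. A gene is said to rise, fall, or be higher or lower only where its limma p-value, adjusted by Benjamini-Hochberg over all 15757 genes, was under 0.05. Library totals ran from 15667163 normalized counts at day 7 to 21257961 at day 0, and replicates correlated at 0.981 to 0.989 across genes. The pair of control libraries of day 1 lay farthest apart, with a median absolute log2 difference of 0.252 against 0.118 to 0.162 in the other 9 groups. Ddx10 itself averaged 316 ± 4.55 at day 0, 288 ± 46.8 at day 1, 331 ± 34.8 at day 3, 441 ± 20.8 at day 5 and 529 ± 0.91 at day 7 in the knockdown, against 512 ± 16.6 at day 0, 862 ± 82.9 at day 1, 822 ± 27.4 at day 3, 762 ± 47.4 at day 5 and 815 ± 73.9 at day 7 in the control (SD, n = 2 each). It was lower at every day, with a log2 fold change of -0.999 over all days (SE 0.05, limma adjusted p = 5.85e-08). Fibroblast markers summed to 312306 to 324967 in knockdown and 382776 to 392136 in control libraries of day 0. By day 7 that sum was 92961 to 108320 in the knockdown and 92429 to 94678 in the control. In such bulk RNA, fewer cells of a type and less RNA per cell cannot be told apart.

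Promoters of 4 members that carry the results below are shown first, from RefSeq on GRCm38.p6, each 250 bases before to 50 after the gene's start and read along the gene's strand. RefSeq's starts can differ from those of GENCODE M21, which begins Nrp1 upstream, at position 128358604 of chromosome 8. Nrp1 and Nrp2 are the neuropilin pair that moved in opposite directions, Sema4f had one of the largest increases over the course, and Sema3e had the clearest difference between arms. Capitals mark GC boxes (GGGCGG, or CCGCCC on the other strand), the sequence known to bind Sp and Klf factors.
Nrp1: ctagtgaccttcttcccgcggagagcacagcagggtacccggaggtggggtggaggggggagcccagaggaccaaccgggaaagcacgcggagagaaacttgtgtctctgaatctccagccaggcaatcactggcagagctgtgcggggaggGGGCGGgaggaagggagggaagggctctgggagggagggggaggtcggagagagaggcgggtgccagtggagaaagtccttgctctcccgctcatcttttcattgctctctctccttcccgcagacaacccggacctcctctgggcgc
Nrp2: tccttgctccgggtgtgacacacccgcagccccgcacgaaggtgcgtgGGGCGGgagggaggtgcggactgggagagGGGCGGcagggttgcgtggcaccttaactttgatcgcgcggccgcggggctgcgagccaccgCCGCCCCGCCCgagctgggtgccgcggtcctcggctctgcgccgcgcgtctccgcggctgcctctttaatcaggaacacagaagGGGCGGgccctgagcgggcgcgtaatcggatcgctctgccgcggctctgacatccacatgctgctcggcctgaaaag
Sema4f: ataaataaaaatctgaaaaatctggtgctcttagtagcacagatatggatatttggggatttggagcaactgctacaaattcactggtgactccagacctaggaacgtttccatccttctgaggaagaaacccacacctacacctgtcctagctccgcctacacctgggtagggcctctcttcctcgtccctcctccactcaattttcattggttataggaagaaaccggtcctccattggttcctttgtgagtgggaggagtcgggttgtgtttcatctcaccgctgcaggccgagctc
Sema3e: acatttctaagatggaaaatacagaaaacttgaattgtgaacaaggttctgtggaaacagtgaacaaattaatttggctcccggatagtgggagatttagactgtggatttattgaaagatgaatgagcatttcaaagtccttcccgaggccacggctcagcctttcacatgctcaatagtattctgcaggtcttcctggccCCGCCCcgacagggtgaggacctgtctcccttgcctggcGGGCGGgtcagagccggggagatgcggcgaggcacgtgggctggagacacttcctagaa
The Nrp1 window lies at chr8:128358823-128359122 on the plus strand and holds 1 GC box and 14 CpG dinucleotides. That of Nrp2, at chr1:62703067-62703366 on the plus strand, holds 5 GC boxes, 2 of them overlapping, and 37 CpGs. The Sema4f window at chr6:82939720-82940019, on the minus strand, has 0 GC boxes and 7 CpGs. Sema3e's window at chr5:14025026-14025325 on the plus strand has 2 GC boxes, 11 CpGs and 1 E-box (CACGTG, the same on both strands). RefSeq windows were matched for 26 members, 37 windows in all. A GC box was present in 27 of the 37, against 35.7% of 32851 windows over all genes, and the median CpG count was 15 against 7. The shorter CACCC box (CACCC or GGGTG) was in 31 of 37 windows, against 57.5% of all, and CACGTG in 3 of 37, against 7.2%. Neither the octamer ATGCAAAT (or ATTTGCAT) nor TATAAA (or TTTATA) was found in any of the 37, against 1.7% and 13.6% of all windows. These matches describe letters in these windows only.

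Most members moved over the course in both arms. At day 7 against day 0, 23 of 31 members were called in the knockdown, 12 higher and 11 lower, where 67.1% of all genes were called (36.2% higher and 30.9% lower). The control had 24 called, 10 higher and 14 lower, where 72.3% of all genes were called (38.6% higher and 33.7% lower). Both shares of members, 74.2% and 77.4%, stood near those of all genes. With quantile scaling the split of called members was 11 higher and 16 lower in the knockdown. All 20 members called in both arms had the same direction. The 10 that rose in both were Nrp2, Plxna2, Plxnb1, Sema3b, Sema3g, Sema4b, Sema4d, Sema4f, Sema5b and Sema6d. The 10 that fell in both were Nrp1, Plxna1, Plxna4, Plxnd1, Sema3a, Sema3c, Sema3d, Sema3e, Sema3f and Sema6c. With quantile scaling the calls of Sema3g in both arms and of Sema6d in the control were lost. Leaving out single libraries lost, in some fits, the calls of Plxna4 and Sema4d in the knockdown, Sema6d in the control and Sema6c in both arms.

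Many of these changes were present at day 1. The knockdown had 20 members called at day 1 against day 0, 11 higher and 9 lower, beside 50.1% of all genes (25.5% higher and 24.6% lower). In the control 21 were called, 11 higher and 10 lower, beside 55% of all genes (28.3% higher and 26.7% lower). Per kilobase of the longest coding transcript, the secreted class 3 semaphorins summed to 978.2 to 1037.2 in knockdown libraries of day 7, against 1811.7 to 2114.5 at day 0. The control gave 855.1 to 860.1 at day 7 and 1623.2 to 1810.7 at day 0. The sum of the membrane semaphorins went the other way on the same scale. Their sum was 1183.4 to 1205.6 at day 7 of the knockdown, against 557.1 to 585.5 at day 0, and 1188.0 to 1249.0 at day 7 of the control, against 518.3 to 635.9 at day 0. Per length the sum of secreted members was thus above that of membrane members at day 0 and below it at day 7 in every library of both arms. Sema3c and Sema3a made up most of the secreted sum at day 0 and carried its decrease. Per kilobase they averaged 1161 and 405 at day 0 of the knockdown, against 342 and 59.0 at day 7. In the control they averaged 947 and 356 at day 0, against 346 and 47.0 at day 7. Single members did not all follow these sums. Of 7 secreted members, 2 rose and 5 fell over the course in each arm. Of 13 membrane members, 6 rose and 1 fell in the knockdown, and 5 rose and 4 fell in the control. All genes had 36.2% higher and 30.9% lower in the knockdown and 38.6% higher and 33.7% lower in the control.

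**Figure D1:**
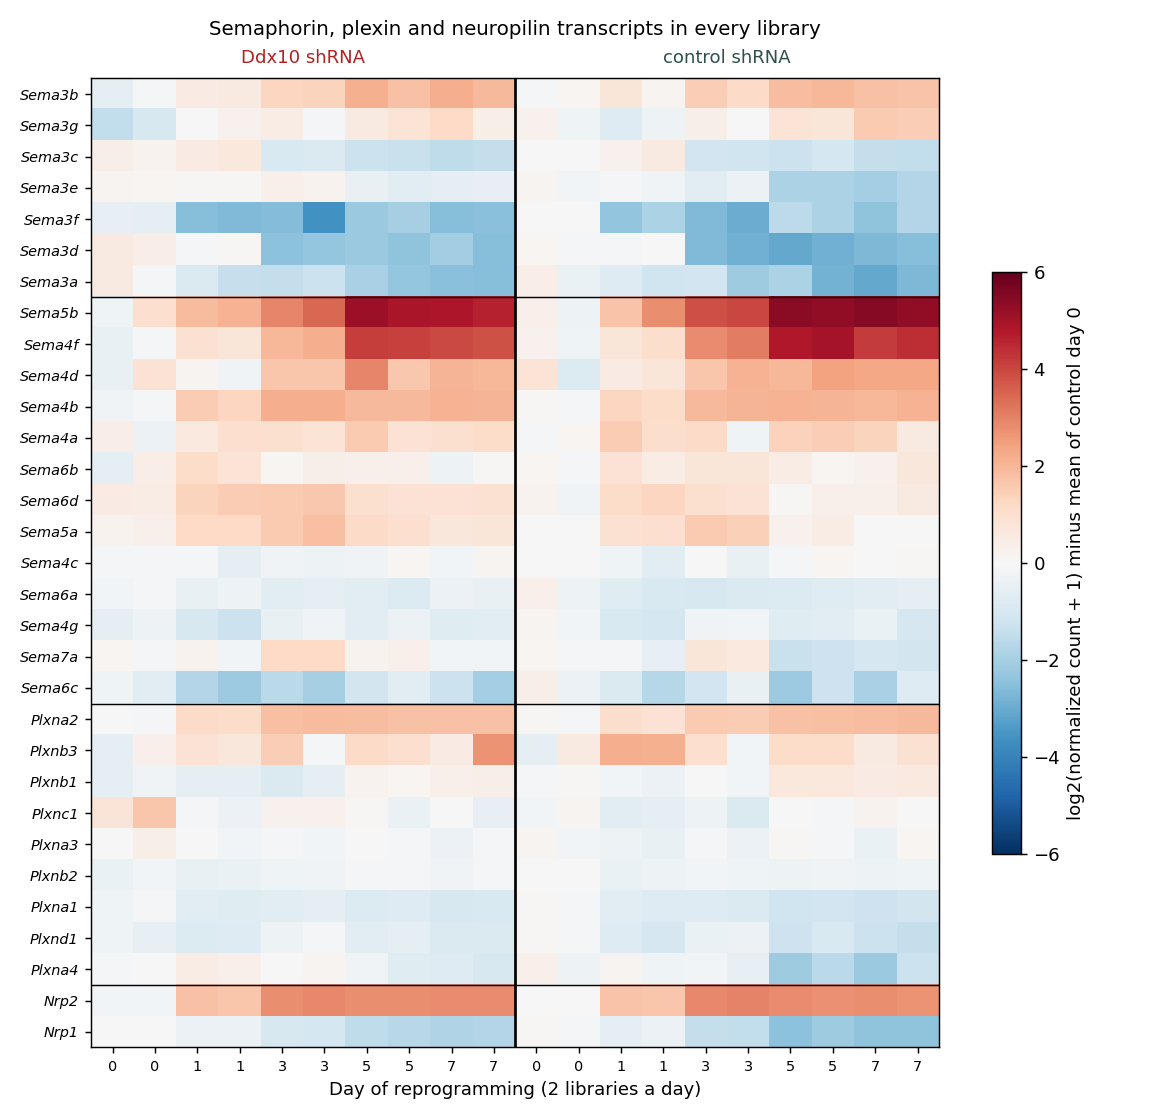
Levels of the 31 members in each library as log2 of the normalized count plus 1, minus the gene's mean over the control libraries of day 0 (colour scale, red higher and blue lower), with columns as libraries by arm and day and rows as genes by class. Sema5b, Sema4f and Nrp2 turn red and Sema3a, Sema3d and Nrp1 turn blue from day 0 to day 7 in both arms.

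**Figure D2:**
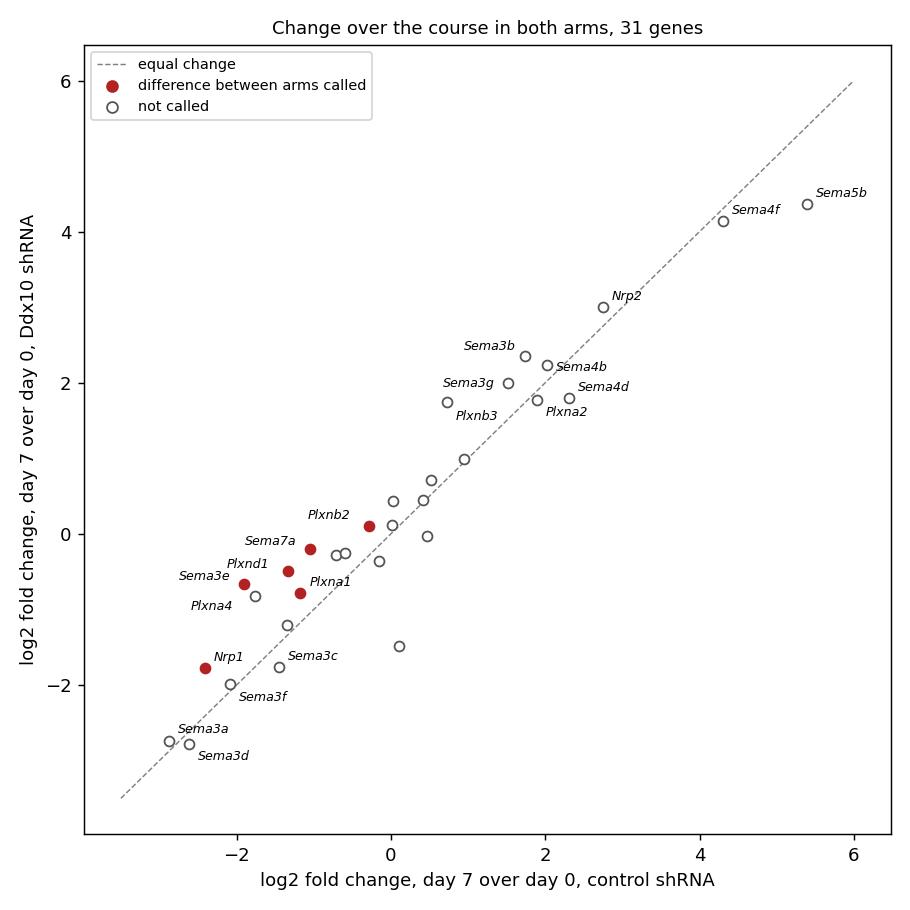
Log2 fold change of each member at day 7 over day 0, with the knockdown on the vertical axis and the control on the horizontal axis. Filled points are the 6 members whose change differed between arms by limma, all of them above the dashed line of equal change, and the farthest to the right is Sema5b, with 4.36 for the knockdown and 5.40 for the control.

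Most calls between the arms came from day 3 on. As the mean of all days, 11 of 31 members differed between knockdown and control, 8 higher and 3 lower, where 17.8% of all genes were called (10.3% higher and 7.46% lower). At day 0 the count was 1 member (Plxnb2, lower), beside 3.31% of all genes (2.49% higher and 0.812% lower), and it was 0 members with quantile scaling or with the day 0 libraries fitted alone. No member was called at day 1 by limma, the one tool used, although 5 had an unadjusted p under 0.05, and 0.146% of all genes were called (0.0254% higher and 0.121% lower). At day 3 the knockdown had 5 members higher and 2 lower, beside 4.77% of all genes (2.51% higher and 2.25% lower). That count of 7 was 0 without replicate 1 of the knockdown and 2 without any other one of the 4 libraries of that day. At day 5, 9 members were higher and 2 lower, beside 8.73% of all genes (5.83% higher and 2.9% lower), a count of 11 that was 4 without control replicate 1 and 6 without knockdown replicate 1. At day 7, 6 were higher and 0 lower, beside 6.17% of all genes (4.65% higher and 1.52% lower). Of the 31 members, 14 were called in at least 1 of these 6 comparisons and 17 in none.

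The change from day 0 to day 7 differed between arms for 6 members, beside 6.38% of all genes (3.92% higher and 2.46% lower). They were Nrp1, Plxna1, Plxnb2, Plxnd1, Sema3e and Sema7a, each with a larger value in the knockdown. Sema3e kept this call whichever library was left out. The count of 6 was 1 without control replicate 1 of day 0, 1 without knockdown replicate 2 of day 7, 2 without control replicate 1 of day 7 and 3 without control replicate 2 of day 7. Of the 9 members higher in the knockdown at day 5, 7 were lower at day 7 than at day 0 in the control, close to the 667 of 919 such genes (72.6%) in the whole table. Both members that were lower in the knockdown at day 5 rose over the control course, as did 75.1% of the 457 genes so called. Of the 5 members higher in the knockdown at day 3, 3 fell and 2 rose over the control course, beside 70.2% and 21.2% of 396 such genes. Both members lower at day 3 rose, as did 63.4% of the 355 genes so called. These counts of members are too small to say whether their direction relative to the course was like that of all genes.

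**Figure D3:**
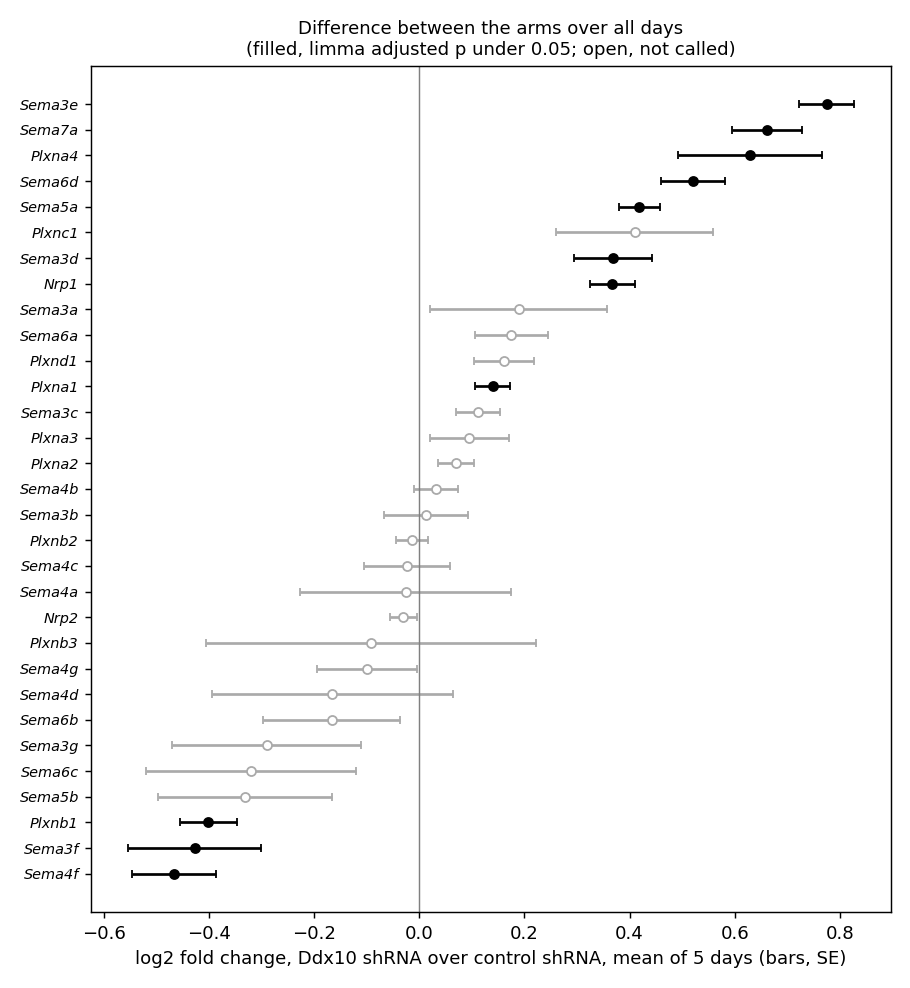
Log2 fold change of the knockdown over the control as the mean of the 5 days, for each member (points) with its standard error (bars). Filled points passed the limma threshold: 8 members lie to the right of zero, from Plxna1 at 0.14 to Sema3e at 0.78, and 3 to the left, from Plxnb1 at -0.40 to Sema4f at -0.47.

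Among the secreted ligands, Sema3e showed the largest difference between arms of all members called at day 7. Sema3e encodes a repellent of growing vessels that binds plexin D1 without a neuropilin. Sema3e counts in the knockdown were 941 and 889 at day 0, 866 and 876 at day 1, 1037 and 953 at day 3, 609.7 and 538 at day 5 and 573 and 584 at day 7. Sema3e counts in the control were 917 and 751 at day 0, 755 and 726 at day 1, 529.8 and 641 at day 3, 225 and 223 at day 5 and 204 and 241 at day 7. The arms overlapped at day 0 and were apart from day 1, and at days 5 and 7 every knockdown library was over 2 times any control library. The difference was 0.77 on the log2 scale (SE 0.12, limma adjusted p = 0.003) at day 3, 1.35 at day 5 and 1.38 on the log2 scale (SE 0.12, limma adjusted p = 2.44e-05) at day 7. Over the course Sema3e fell by 0.66 in the knockdown and by 1.90 in the control on the log2 scale, a difference between arms of 1.24 (SE 0.16, limma adjusted p = 0.00101).

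Sema3d, a secreted ligand with roles in heart and vein development, fell over the course in both arms. Sema3d counts in the knockdown were 620.4 and 563 at day 0, 414 and 448 at day 1, 76.4 and 84.0 at day 3, 92.1 and 79.4 at day 5 and 99.8 and 72.8 at day 7. Sema3d counts in the control were 463 and 397 at day 0, 395 and 427 at day 1, 66.9 and 57.6 at day 3, 50.8 and 57.8 at day 5 and 64.9 and 73.0 at day 7. Every library of days 3 to 7 was far below those of days 0 and 1, and the arms were apart at days 0, 3 and 5. Sema3d was higher in the knockdown over all days (log2 fold change 0.37, SE 0.07, limma adjusted p = 0.00283) and at day 5 (log2 fold change 0.65, SE 0.17, limma adjusted p = 0.0231), the second a call lost without replicate 1 of either arm. Its course change was -2.78 in the knockdown and -2.62 in the control.

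Sema3a, the founding repellent of axons that acts through neuropilin-1, had the largest decrease over the control course. Sema3a counts in the knockdown were 2944 and 1856 at day 0, 1112 and 784 at day 1, 767 and 828 at day 3, 521 and 411 at day 5 and 359 and 341 at day 7. Sema3a counts in the control were 2660.4 and 1559.7 at day 0, 1178 and 879.8 at day 1, 916 and 463 at day 3, 548 and 279.9 at day 5 and 243 and 313 at day 7. Replicates differed widely, replicate 1 being the higher in 8 of the 10 groups, and the arms overlapped at days 0, 1, 3 and 5 but not at day 7. Sema3a fell by 2.74 in the knockdown and 2.88 in the control on the log2 scale, and was not called between arms at any day.

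Sema3f, which acts through neuropilin-2, fell within a day. Sema3f counts in the knockdown were 257 and 242 at day 0, 59.7 and 57.0 at day 1, 57.4 and 28.3 at day 3, 75.1 and 89.7 at day 5 and 61.3 and 62.7 at day 7. Sema3f counts in the control were 353 and 365 at day 0, 69.2 and 95.6 at day 1, 57.4 and 45.1 at day 3, 118 and 97.0 at day 5 and 66.1 and 106 at day 7. Every library of days 1 to 7 was below every library of day 0 in both arms. The change at day 1 was -2.08 in the knockdown and -2.13 in the control. Sema3f was lower in the knockdown as the mean of all days (log2 fold change -0.43, SE 0.13, limma adjusted p = 0.0307), a call lost in 11 of the 27 other settings tried, with a limma adjusted p of up to 0.0697.

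The other secreted ligands were not called between arms. Sema3c, a ligand of both neuropilins, had the highest level per kilobase of all semaphorins at day 0 in both arms and ran over 1825 to 8050 in knockdown and 1849 to 7659 counts in control libraries. It rose at day 1 by 0.28 in the knockdown and 0.42 in the control, and fell by 1.76 in the knockdown and 1.45 in the control by day 7. Sema3b, described as a tumour suppressor, rose over the course by 2.36 in the knockdown and 1.74 in the control. Sema3g averaged under 50 counts and rose by 1.99 in the knockdown and 1.52 in the control, changes that were 0.58 and 0.38 in these arms with quantile scaling and not called.

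Position and direction did not always go together among these genes. In GENCODE M21 on GRCm38, Sema3d (chr5:12383385-12588948), Sema3a (chr5:13125414-13602565), Sema3e (chr5:14025276-14256689) and Sema3c (chr5:17574281-17730268) stand in a row on the plus strand, with gaps of 536.5, 422.7 and 3317.6 kilobases. All 4 fell over the course in both arms. Sema3b (chr9:107597674-107609229) and Sema3f (chr9:107681500-107710475) are 72.3 kilobases apart on the minus strand, and Sema3b rose where Sema3f fell.

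Among the membrane semaphorins, Sema7a, the family's lipid-anchored member and a ligand of plexin C1 and of integrins with the beta-1 chain, had the largest difference of any member at day 5. Sema7a counts in the knockdown were 255 and 229 at day 0, 275 and 213 at day 1, 543 and 542 at day 3, 273 and 291 at day 5 and 210.3 and 211 at day 7. Sema7a counts in the control were 259 and 217 at day 0, 223 and 169.9 at day 1, 389.8 and 351 at day 3, 93.1 and 101 at day 5 and 117 and 111 at day 7. Both arms were highest at day 3, the arms overlapped at days 0 and 1, and all knockdown libraries stood above the control libraries from day 3 on. The difference was 1.53 on the log2 scale (SE 0.15, limma adjusted p = 2.58e-05) at day 5 and 0.88 on the log2 scale (SE 0.15, limma adjusted p = 0.00246) at day 7. Sema7a fell by 1.05 over the control course on the log2 scale and was not called in the knockdown, at -0.20, with a difference between arms of 0.85 (limma adjusted p = 0.0282) that was lost in 7 of the 8 fits without 1 library. Plxnc1, its plexin, averaged under 50 counts and was not called between arms. Its 2 knockdown libraries of day 0 had 41.0 and 76.7 counts, against 21.1 and 26.0 in the control, a log2 fold change of 1.22 (limma adjusted p = 0.0548). Plxnc1 fell over the knockdown course by 1.48 (limma adjusted p = 0.00098) and was not called over the control course, at 0.10. The difference between arms in that change, -1.59, was not called (limma adjusted p = 0.0572).

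Sema5a, a transmembrane ligand with thrombospondin repeats, was transient in both arms. Sema5a counts in the knockdown were 1179.7 and 1259 at day 0, 2297 and 2348 at day 1, 3019 and 3536 at day 3, 2238 and 2036 at day 5 and 1609 and 1673 at day 7. Sema5a counts in the control were 1038 and 985 at day 0, 1922 and 2062 at day 1, 2956 and 2689 at day 3, 1228 and 1372 at day 5 and 1035 and 1029.8 at day 7. Levels were highest at day 3, and no knockdown library was below a control library of the same day. It was higher in the knockdown at day 5 (log2 fold change 0.72, SE 0.09, limma adjusted p = 0.000118) and day 7 (log2 fold change 0.67, SE 0.09, limma adjusted p = 0.000303), calls kept whichever library was left out. At day 7 against day 0 it rose by 0.43 in the knockdown, against 0.03 in the control, where it was not called, and the difference between arms of 0.40 was not called (limma adjusted p = 0.0668).

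Sema5b, a relative of Sema5a that repels axons in the nervous system, rose most of all members over the course in both arms. Sema5b counts in the knockdown were 17.6 and 44.5 at day 0, 82.2 and 93.9 at day 1, 169.6 and 245 at day 3, 779.7 and 673 at day 5 and 645 and 553 at day 7. Sema5b counts in the control were 26.6 and 17.2 at day 0, 72.7 and 152 at day 1, 330.5 and 363 at day 3, 957 and 901 at day 5 and 994 and 895 at day 7. The level was higher at each sampled day up to day 5 in both arms, and at days 3, 5 and 7 each knockdown library was below the control libraries. The differences at those days, -0.76, -0.36 and -0.66, were not called (limma adjusted p = 0.285, 0.645 and 0.39).

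Sema4f, a transmembrane semaphorin of neurons and Schwann cells, rose strongly as well. Sema4f counts in the knockdown were 32.7 and 42.5 at day 0, 83.8 and 75.5 at day 1, 181 and 207 at day 3, 809.7 and 779.7 at day 5 and 702 and 644 at day 7. Sema4f counts in the control were 53.3 and 37.2 at day 0, 74.6 and 92.0 at day 1, 324 and 379 at day 3, 1255 and 1429 at day 5 and 823 and 980.1 at day 7. Both arms were highest at day 5, the arms overlapped at days 0 and 1, and the knockdown libraries were below the control libraries at days 3, 5 and 7. Sema4f was lower in the knockdown over all days (log2 fold change -0.47, SE 0.08, limma adjusted p = 0.000924), at day 3 (-0.85) and at day 5 (log2 fold change -0.75, SE 0.18, limma adjusted p = 0.0149). The day 5 call was lost without any one of that day's 4 libraries, at a limma adjusted p of up to 0.113.

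Sema6d, a ligand of plexin A1, was the other membrane member higher in the knockdown. Sema6d counts in the knockdown were 385 and 369.8 at day 0, 699 and 806 at day 1, 816 and 853 at day 3, 545 and 510.3 at day 5 and 509 and 522 at day 7. Sema6d counts in the control were 323 and 234 at day 0, 601 and 669 at day 1, 534 and 509.8 at day 3, 292 and 343 at day 5 and 339 and 396 at day 7. Knockdown libraries were above control libraries at each of the 5 days, and both arms rose at day 1. Its difference was 0.52 on the log2 scale (SE 0.06, limma adjusted p = 4.16e-05) over all days, 0.68 at day 3, 0.74 at day 5 and 0.49 at day 7. The calls of days 3 and 7 were lost without any one of the 4 libraries of the day, at a limma adjusted p of up to 0.0942 at day 3 and 0.347 at day 7, and that of day 5 without control replicate 1.

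Sema4d and Sema4b rose in both arms without a called difference between them. Sema4d is the ligand of plexin B1 known from lymphocytes. Sema4d counts in the knockdown were 40.9 and 100.2 at day 0, 61.8 and 48.3 at day 1, 179 and 179 at day 3, 422 and 172 at day 5 and 228 and 223 at day 7. Sema4d counts in the control were 99.7 and 30.4 at day 0, 78.0 and 91.5 at day 1, 175 and 239.6 at day 3, 225 and 295 at day 5 and 275 and 277 at day 7. Replicates were far apart in both arms at day 0 and in the knockdown at day 5, and all libraries of day 7 were above all of day 0. Sema4d rose by 1.80 in the knockdown and 2.30 in the control. Sema4b counts in the knockdown were 286 and 307 at day 0, 954 and 808 at day 1, 1512 and 1498 at day 3, 1274 and 1267 at day 5 and 1419 and 1377 at day 7. Sema4b counts in the control were 349 and 315 at day 0, 802 and 702 at day 1, 1295 and 1363 at day 3, 1432 and 1352 at day 5 and 1306 and 1399 at day 7. It rose by 2.23 in the knockdown and 2.03 in the control, most of it by day 3.

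The remaining membrane members were Sema4a, Sema4c, Sema4g, Sema6a, Sema6b and Sema6c, and none was called between arms. Sema6c fell over the course by 1.20 in the knockdown and 1.35 in the control on the log2 scale. Sema4g and Sema6a fell in the control (-0.71 and -0.60), and their values in the knockdown, -0.28 and -0.26, were not called. Differences between arms in those changes, 0.43 for Sema4g and 0.34 for Sema6a, were not called either (limma adjusted p = 0.453 and 0.393). Sema4a and Sema6b averaged under 50 counts.

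The neuropilins changed places over the course. Nrp1 binds Sema3a and VEGF-A, and Nrp1 counts in the knockdown were 2596 and 2523 at day 0, 2029 and 1997 at day 1, 1301 and 1249 at day 3, 879.6 and 806 at day 5 and 728 and 761 at day 7. Nrp1 counts in the control were 2708 and 2440.5 at day 0, 1794 and 2008 at day 1, 950.4 and 929.6 at day 3, 465 and 586 at day 5 and 481 and 482 at day 7. The average was lower at each later day in both arms, the arms overlapped at days 0 and 1, and from day 3 on both knockdown libraries were above both control libraries. The difference was 0.44 on the log2 scale (SE 0.10, limma adjusted p = 0.018) at day 3, 0.69 on the log2 scale (SE 0.10, limma adjusted p = 0.000411) at day 5 and 0.63 on the log2 scale (SE 0.10, limma adjusted p = 0.00101) at day 7. The calls of days 5 and 7 were kept whichever library was left out, while that of day 3 was lost without any one of its 4 libraries. Nrp1 fell by 1.78 over the knockdown course and by 2.42 over the control course on the log2 scale, a difference of 0.64 (SE 0.14, limma adjusted p = 0.0139). The call of that difference was lost without control replicate 1 of day 0, control replicate 1 of day 7 or knockdown replicate 2 of day 7.

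Nrp2, the co-receptor for Sema3f and VEGF-C, rose instead. Nrp2 counts in the knockdown were 1260.0 and 1271 at day 0, 4749.5 and 4542 at day 1, 10003 and 10423 at day 3, 9861 and 9933 at day 5 and 10054 and 10263 at day 7. Nrp2 counts in the control were 1463 and 1392 at day 0, 4696 and 4554 at day 1, 10477 and 11172 at day 3, 10054 and 9585 at day 5 and 9726 and 9388 at day 7. All libraries of day 3 and later were far above those of day 0, and the arms overlapped at days 1 and 5, with the knockdown below at days 0 and 3 and above at day 7. Nrp2 rose by 3.00 in the knockdown and 2.74 in the control, and its difference between arms over all days was -0.03 on the log2 scale (SE 0.03, limma adjusted p = 0.466) and was not called. Per kilobase of coding transcript the Nrp2 level over the Nrp1 level was 0.26 and 0.27 at day 0 of the knockdown, 1.25 and 1.22 at day 1, 4.11 and 4.46 at day 3, 6.0 and 6.6 at day 5, and 7.39 and 7.21 at day 7. The same ratio in the control was 0.289 and 0.305, 1.40 and 1.21, 5.90 and 6.43, 11.6 and 8.75, and 10.8 and 10.4 on these days. From day 3 on every control library had the higher ratio. The summed neuropilin level per kilobase was 1697.8 to 1738.2 in the knockdown and 1530.3 to 1580.4 in the control at day 7, against 890.6 to 909.1 in the knockdown and 885.5 to 970.5 in the control at day 0. The Nrp1 transcript used for length, 3597 bases, is short of its full 3′ end in that annotation, and the authors' own lengths were not used here.

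**Figure D4:**
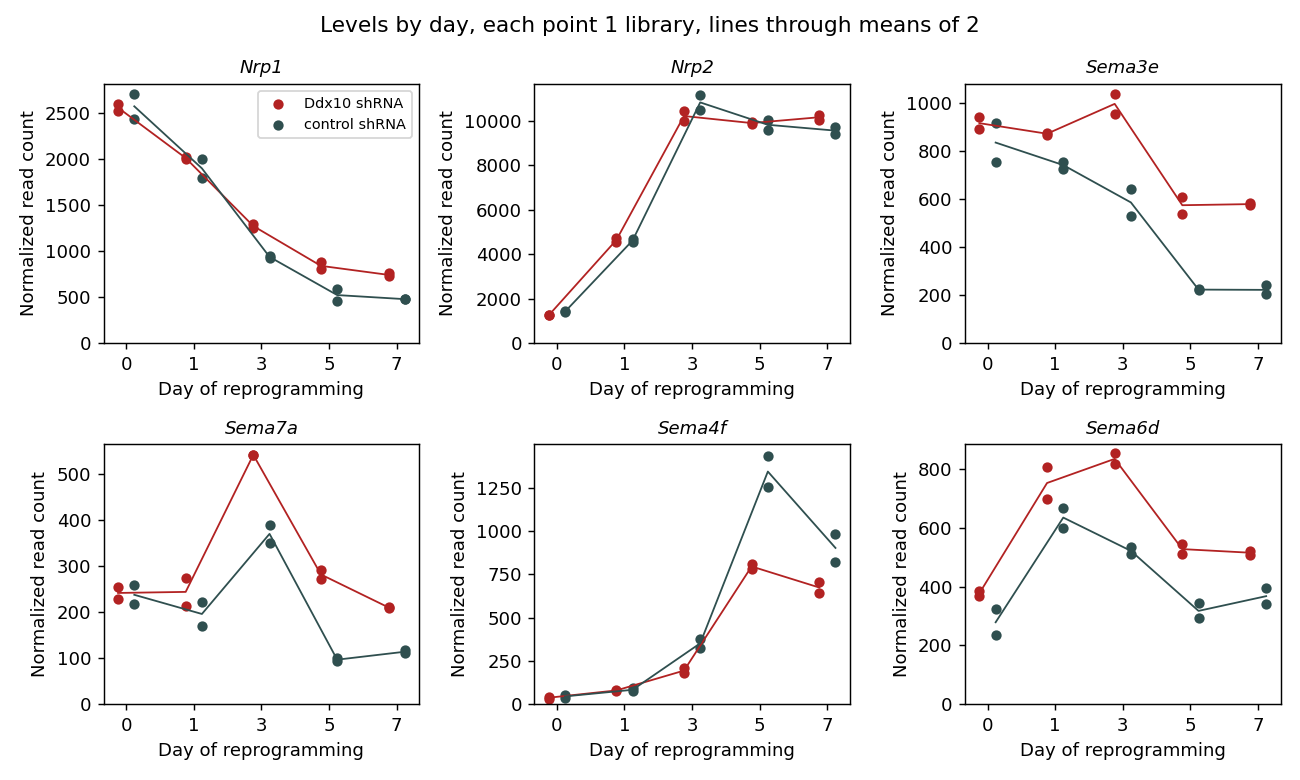
Normalized read count (vertical axes, linear from 0) by day of reprogramming (days evenly spaced) for Nrp2 and 5 members that differed between arms, with a point for each library and lines through the means of 2 libraries, knockdown in red and control in dark grey. Nrp1 decreases in both arms and ends at 728 and 761 in the knockdown, against 481 and 482 in the control.

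Plexin transcripts were led by Plxnb2 and Plxna1 in both arms. Per kilobase, Plxnb2 had the highest level of all 31 members at days 0 and 7 in both arms. Plxnb2 encodes a receptor of class 4 semaphorins in epithelia and neural progenitors. Plxnb2 counts in the knockdown were 12459.6 and 14280.0 at day 0, 12036 and 12232 at day 1, 13683 and 13988 at day 3, 15207 and 15596 at day 5 and 13999 and 14766 at day 7. Plxnb2 counts in the control were 16686 and 15735 at day 0, 12429 and 13056 at day 1, 14384 and 13436 at day 3, 13323 and 13910.0 at day 5 and 13279 and 13373 at day 7. The knockdown libraries were below the control libraries at day 0 and above them at days 5 and 7. Plxnb2 was lower in the knockdown at day 0 (log2 fold change -0.28, SE 0.07, limma adjusted p = 0.0301), and fell over the control course by 0.28 on the log2 scale. With quantile scaling the day 0 difference was not called and the control change turned to 0.48, so the direction of Plxnb2 over the course depended on scaling. The difference between arms in its course change was 0.39 (limma adjusted p = 0.0232). That call was lost in 7 of the 15 other settings tried, among them quantile scaling and the compared groups fitted alone. At day 7 itself the difference between arms, 0.11, was not called (limma adjusted p = 0.429).

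Plxna1, a class A plexin that pairs with neuropilins and binds Sema6d, decreased in both arms. Plxna1 counts in the knockdown were 12312 and 13716 at day 0, 9339.8 and 8891 at day 1, 9017 and 9763 at day 3, 8232 and 8516 at day 5 and 7452 and 7652 at day 7. Plxna1 counts in the control were 15459 and 13702 at day 0, 8941 and 8458 at day 1, 8380.0 and 8094 at day 3, 6347 and 6512 at day 5 and 6168 and 6729 at day 7. The arms overlapped at day 0, and from day 3 on all knockdown libraries were above the control libraries. Plxna1 was higher in the knockdown over all days (log2 fold change 0.14, SE 0.03, limma adjusted p = 0.00805) and at day 5 (log2 fold change 0.38, SE 0.07, limma adjusted p = 0.00407), the second lost without control replicate 1. It fell by 0.78 over the knockdown course and by 1.18 over the control course. The difference of 0.39 (limma adjusted p = 0.0369) was lost with quantile scaling, with the 4 groups fitted alone and in 5 of the 8 fits without 1 library. The antisense gene Gm26811 shares 970 bases, 10.74% of the Plxna1 exons, and no source used here says whether counting used strand.

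Plxna2 and Plxna4, receptors of Sema6a and partners of neuropilins, went in opposite directions over the course. The log2 fold change at day 7 against day 0 was 1.78 in the knockdown and 1.89 in the control for Plxna2. For Plxna4 it was -0.82 in the knockdown and -1.76 in the control. The knockdown call of Plxna4 was lost without any one of its 4 libraries. Plxna2 counts in the knockdown were 919 and 868 at day 0, 1988 and 1954 at day 1, 3212 and 3340.1 at day 3, 3303 and 3102 at day 5 and 3107 and 3015 at day 7. Plxna2 counts in the control were 963 and 851 at day 0, 1867 and 1659 at day 1, 2715 and 2611 at day 3, 3056 and 3168 at day 5 and 3227 and 3483 at day 7. Averages were higher at each sampled day up to day 3 in both arms, and knockdown libraries were above control libraries at days 1 and 3 and below them at day 7. Its one call between arms was at day 3 (log2 fold change 0.30, SE 0.08, limma adjusted p = 0.0367) and was lost without any one of the 4 libraries of that day. Plxna4 counts in the knockdown were 83.6 and 87.1 at day 0, 117 and 109.6 at day 1, 87.8 and 98.5 at day 3, 76.2 and 51.8 at day 5 and 51.4 and 44.5 at day 7. Plxna4 counts in the control were 106 and 71.3 at day 0, 97.2 and 71.5 at day 1, 77.8 and 62.7 at day 3, 18.9 and 27.5 at day 5 and 18.0 and 34.7 at day 7. The arms overlapped at day 0, and the knockdown libraries were above the control libraries at every later day. Plxna4 was higher in the knockdown over all days (log2 fold change 0.63, SE 0.14, limma adjusted p = 0.00472) and at day 5 (log2 fold change 1.42, SE 0.30, limma adjusted p = 0.00789), the day 5 call being lost without replicate 1 of either arm.

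Plxnd1, the receptor of Sema3e, was lower at day 7 than at day 0 in both arms, as was its ligand. The days between did not follow a steady decrease, and in both arms the Plxnd1 mean was higher at day 3 than at day 1. Plxnd1 counts in the knockdown were 392 and 337 at day 0, 264 and 275 at day 1, 389.9 and 439.5 at day 3, 306 and 313 at day 5 and 257 and 258 at day 7. Plxnd1 counts in the control were 496 and 453 at day 0, 276 and 234 at day 1, 358 and 366 at day 3, 202 and 255 at day 5 and 196 and 178 at day 7. Knockdown libraries were below control libraries at day 0 and above them at days 3, 5 and 7. The difference was 0.45 on the log2 scale (SE 0.13, limma adjusted p = 0.0409) at day 5 and 0.46 on the log2 scale (SE 0.13, limma adjusted p = 0.0447) at day 7, and both calls were lost when those groups were fitted alone. The day 5 call was also lost without any of 3 of its 4 libraries and the day 7 call without any one of 4. Plxnd1 fell by 0.49 over the knockdown course and by 1.34 over the control course, a difference of 0.84 (limma adjusted p = 0.0138). That call was lost without control replicate 1 of day 0, control replicate 2 of day 7 or knockdown replicate 2 of day 7.

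Plxnb1, the receptor of Sema4d, was lower in the knockdown over all days. Plxnb1 counts in the knockdown were 406 and 519 at day 0, 418 and 414 at day 1, 332 and 397 at day 3, 701 and 650.1 at day 5 and 752 and 756 at day 7. Plxnb1 counts in the control were 568 and 638 at day 0, 542 and 476 at day 1, 601 and 539.9 at day 3, 939 and 938 at day 5 and 834 and 899.9 at day 7. At each of the 5 days both knockdown libraries were below both control libraries. The difference was -0.40 on the log2 scale (SE 0.05, limma adjusted p = 0.000126) over all days, -0.65 on the log2 scale (SE 0.12, limma adjusted p = 0.0085) at day 3 and -0.48 on the log2 scale (SE 0.12, limma adjusted p = 0.0217) at day 5. The call of day 3 was lost without replicate 1 of either arm, and that of day 5 without any one of its 4 libraries. Over the course Plxnb1 rose by 0.71 in the knockdown and 0.53 in the control, and its exons share 257 bases with the antisense gene Gm7628. Plxna3 was called in none of the 11 comparisons, at 371 to 587 counts in knockdown and 339 to 525 in control libraries. Plxnb3 had at most 19.3 counts in any library, and its increase over the knockdown course of 1.74 turned to -0.03 with quantile scaling.

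Genes that work with these receptors were read from 3 lists. Of 8 VEGF ligands and receptors, 3 were higher and 0 lower in the knockdown at day 5 (5.83% and 2.9% of all genes), 2 higher and 1 lower at day 7 (4.65% and 1.52%), and 2 higher and 0 lower as the mean of all days (10.3% and 7.46%). Kdr, the main VEGF-A receptor, was higher over all days by 0.52 (SE 0.06, limma adjusted p = 6.35e-05), and Flt4, the VEGF-C receptor, by 0.39 (SE 0.07, limma adjusted p = 0.00128). Flt1, a decoy receptor for VEGF-A, was higher at day 5 by 0.94 (SE 0.20, limma adjusted p = 0.00833). Vegfa, the ligand of Kdr and Flt1, was the one lower at day 7, at 433 ± 13.1 counts in the knockdown, against 682 ± 138 in the control (log2 fold change -0.64, SE 0.13, limma adjusted p = 0.00611, SD over n = 2 each). Kdr averaged 190.1 ± 22.9 and 216 ± 5.82 counts in the knockdown, against 98.3 ± 13.7 and 95.4 ± 7.42 in the control, at days 5 and 7 (SD, n = 2 each). Over the course 2 of the 8 rose and 5 fell in the knockdown, and 1 rose and 6 fell in the control, where all genes had 36.2% higher and 30.9% lower in the knockdown and 38.6% higher and 33.7% lower in the control. The median log2 difference between arms over all days was 0.12, against 0.00 for all genes.

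The list of 12 other co-receptors and partners had 4 higher and 1 lower in the knockdown over all days, beside 10.3% and 7.46% of all genes. Nrcam, an adhesion molecule that joins neuropilin-2 complexes, was higher by 0.60 (SE 0.06, limma adjusted p = 8.27e-06). Itgb1, the integrin chain that Sema7a binds, was higher by 0.24 (SE 0.03, limma adjusted p = 0.000122), and Mst1r, a receptor kinase that plexin B1 can couple to, was lower, at -0.60 (SE 0.19, limma adjusted p = 0.0378). Met, the receptor of hepatocyte growth factor (0.28, limma adjusted p = 0.00057), and Itga1, an integrin chain (0.34, limma adjusted p = 0.0033), completed the 4 higher genes and were named after their values were seen. Chl1, a partner of neuropilin-1, was not called between arms (0.07, limma adjusted p = 0.494) and rose over the course by 4.62 in the knockdown and 4.88 in the control. Over the course 4 rose and 5 fell in the knockdown, with the same counts in the control, so that 9 of 12 were called in each arm beside 67.1% of all genes in the knockdown and 72.3% in the control. The list's median difference over all days was 0.21.

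Of 29 intracellular effectors, 9 were higher and 3 lower in the knockdown over all days, beside 10.3% and 7.46% of all genes, with a median of 0.08. Mical2, a flavin enzyme that oxidises actin, was higher by 0.29 (SE 0.04, limma adjusted p = 0.000365), and Farp1, an exchange factor bound by class A plexins, by 0.25 (SE 0.04, limma adjusted p = 0.001). The Ras-family GTPases Rras2 (0.16, SE 0.04, limma adjusted p = 0.00643) and Mras (0.09, SE 0.03, limma adjusted p = 0.0371), were higher as well. The 3 lower genes, named after their values were seen, were the kinase Pak1 (-0.11, limma adjusted p = 0.0204), Dpysl5 (-0.40, limma adjusted p = 0.0207) and Mical3 (-0.22, limma adjusted p = 0.0358). Most effectors fell over the course: 6 rose and 19 fell in the knockdown, and 5 rose and 20 fell in the control. All genes had 36.2% higher and 30.9% lower in the knockdown and 38.6% higher and 33.7% lower in the control. The effectors' medians were -0.68 and -0.85 in these arms, against 0.08 and 0.09 for all genes. Mical2, Farp1, Rras2 and Mras all fell in both arms, with log2 fold changes of -2.53 to -1.39 in the knockdown and -3.10 to -1.83 in the control.

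Markers of other cell types were read from lists as well, and not all of them differed between arms. Beside their counts of called genes, 10.3% of all genes were higher and 7.46% lower in the knockdown over all days. These shares were 2.49% and 0.812% at day 0 and 2.51% and 2.25% at day 3. They were 5.83% and 2.9% at day 5 and 4.65% and 1.52% at day 7. Epithelial markers, 8 of 8 measured, summed to 8084 to 8392 in the knockdown and 17324 to 18571 in the control at day 5, and to 11378 to 12106 in the knockdown and 19791 to 21546 in the control at day 7, with 6 lower and 0 higher in the knockdown over all days. At day 0 they summed to 188 to 203 in the knockdown and 182 to 220.2 in the control. Fibroblast markers, 10 of 10, summed to 137828 to 147769 in the knockdown and 115109 to 120187 in the control at day 3, without overlap. Of these markers, 0 were called higher and 0 lower at day 3, and at day 0 the knockdown's sum was the lower. At day 5 they summed to 123556 to 125100.0 in the knockdown and 107832 to 125787 in the control, where 2 were higher and 0 lower. Pluripotent markers, 8 of 8, summed to 5044 to 5419 in the knockdown and 3814 to 4104 in the control at day 7. The most abundant of them, Tdh, was the one called at day 7 (0.70, SE 0.10, limma adjusted p = 0.000578), while the list's median was -0.40 at day 7 and -0.31 over all days, where 0 were higher and 1 lower. Macrophage markers, 10 of 10, gave 4279 to 4302 in the knockdown and 2966 to 4275 in the control at day 0, where 0 were called. At day 7 they gave 1469 to 1526 in the knockdown and 1232 to 1250.4 in the control, where 2 were higher and 1 lower. Over all days 4 were higher and 0 lower. Endothelial markers, 7 of 8, summed to 3171 to 3228 in the knockdown and 3276 to 3307 in the control at day 7. The 1 of them higher over all days was Kdr, already counted above among the VEGF receptors. Tek averaged 2120.3 over all libraries, against 31.4 for Pecam1 and 18.7 for Cdh5. Neuronal and glial markers, 7 of 8, overlapped between arms at day 7, at 3607 to 4282 in the knockdown and 4140 to 4794 in the control, with 1 higher and 1 lower over all days. The part of these shifts in the differences of Nrp1, Sema3e, Sema7a, Sema4f and the other members was not tested.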

How the data were processed

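mRNA libraries of 20 samples were sequenced as 150-base pairs. The deposited table holds the authors' normalized read counts, a signal on one scale for all libraries, and the submitters' processing notes name mm10 with DESeq2 1.22.0, RSEM 1.2.22, STAR 2.5.2a and Trim Galore 0.4.4, without their roles. Raw counts were not used here, and 45.5 to 63.4% of low values (up to 20 steps) lay within 0.1 of a whole step, so reads were not recovered and limma 3.58.1 (R 4.3.3) was fitted to log2 of the value plus 1. One fit held all 20 libraries and 10 group means, with trended, robust variances and Benjamini-Hochberg adjustment over 15757 genes at 0.05. The filter, a value of at least 1 in 2 libraries, removed 0 genes, and all 31 members passed. Low steps put depth at 12000000 to 23600000 reads per library; without counts no counting interval was computed. The family and the lists were chosen with earlier results of these data known; within the family, genes were taken by name. Values are given per library for members called between arms or in the difference of courses and for the 5 largest rises and falls over the control course. Other genes are named by smallest p in any of the 11 comparisons, 4 per list, apart from those said to be named after their values were seen. Positions and lengths are from GENCODE M21, promoters from RefSeq GRCm38.p6.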

Additional observations from a re-analysis of the deposited data

Results flagged for a closer look

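For 6 members the change from day 0 to day 7 differed between the knockdown and the control by the limma test of the difference itself, and each value is the knockdown's log2 change minus the control's. Sema3e, the ligand of plexin D1, gave 1.24 (SE 0.16, limma adjusted p = 0.00101), from -0.66 in the knockdown and -1.90 in the control. Sema7a gave 0.85 (SE 0.21, limma adjusted p = 0.0282) and Plxnd1 0.84 (SE 0.18, limma adjusted p = 0.0138). Nrp1 gave 0.64 (SE 0.14, limma adjusted p = 0.0139), Plxna1 0.39 (SE 0.10, limma adjusted p = 0.0369) and Plxnb2 0.39 (SE 0.09, limma adjusted p = 0.0232). Plxnb2 was the member whose change had opposite signs in the arms, 0.11 in the knockdown, where it was not called, and -0.28 in the control. Between arms Plxnb2 was called at day 0, lower in the knockdown, and not at day 7. The differences of Plxnd1 and Plxna1 also include day 0 values below zero. Plxnd1 differed between arms by -0.38 at day 0, not called, and by 0.46 at day 7, called. Plxna1 differed by -0.16 at day 0 and 0.23 at day 7, neither called. Epithelial markers at day 7 summed to 11378 to 12106 in the knockdown, against 19791 to 21546 in the control, and their part in these 6 differences was not tested.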

How the results depend on the processing

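Of 130 member calls in 11 comparisons, 80 were kept under every alternative and 50 were lost under at least 1. Quantile scaling reversed 3: Plxnb2 in the control at day 1 (0.009) and day 7 (0.479), and Plxnb3 in the knockdown course (-0.029), and it moved the median of all genes over the control course to -0.08, against 0.09. The cause was not tested. Members called between arms at day 0, 1 in the text, numbered 0 with quantile scaling, 0 with the compared groups fitted alone and 2 with a pseudocount of 5. Over all genes, the 521 called at day 0 numbered 304 and 2 under the first pair, and 100 to 530 without 1 library. The 23 called at day 1 numbered 0 to 41 under other settings and 18 to 743 without 1 library, the highest without control replicate 2, and the 972 of day 7 numbered 1725 with those groups alone and 286 to 553 without 1 library. In such fits the 751 of day 3 numbered 74 to 296, the 1376 of day 5 were 459 to 974, and the 1005 for the difference of courses were 283 to 929. Leaving out 1 library gave 10 to 13 members over all days, 0 to 2 at day 0, 0 at day 1, 0 to 2 at day 3, 4 to 9 at day 5, 4 to 5 at day 7 and 1 to 7 for the difference of courses. In the same fits the members called over the course numbered 20 to 23 in the knockdown and 21 to 23 in the control, and at day 1 they were 14 to 17 and 16 to 19 in the same arms. A mean without day 1, chosen after seeing the data, gave 10. Same-numbered replicates did not deviate together (correlations -0.14 to 0.18 over the 5 days), so the numbers were not taken as pairs. With the replicate block 11 members were called over all days, 10 at day 5, 4 at day 7 and 5 for the difference of courses, without Plxnd1 at days 5 and 7, Sema6d at day 7 and Plxna1 in the difference of courses. Plxnb3, Plxnc1, Sema3g, Sema4a and Sema6b were not tested under the filter on a mean of 50. With 2 libraries a group, and without raw counts, small changes of low members were not detectable.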

Other observations

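Sema3a replicates lay far apart in many groups. Replicate 1 was above replicate 2 in 8 of the 10 groups, with 2944 and 1856 counts in the knockdown and 2660.4 and 1559.7 in the control at day 0, and 521 and 411 in the knockdown and 548 and 279.9 in the control at day 5. Plxnb2 had replicate 1 as the higher in 2 of the 10 groups. The sources do not say what a replicate number shares across groups.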
